A study of Homo sapiens with 27 samples.

Results

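The response of MCF10A cells to transforming growth factor beta (TGFB) given alone was described here by setting the 3 libraries of cells treated with TGFB against the 3 libraries of cells given phosphate-buffered saline (PBS). These 6 libraries were chosen by their labels, out of 27 in the series, and all genes in the table were examined. MCF10A is an established, non-tumorigenic line of human mammary epithelial cells, labelled as normal breast epithelium. Cells of every group had been grown with horse serum, 20 ng/ml epidermal growth factor (EGF), hydrocortisone, cholera toxin and insulin, and were then seeded on plates coated with collagen 1. They were next kept for 18 h in medium free of growth factors. The TGFB group received 10 ng/ml of the ligand in fresh medium of that kind, and the PBS group received no ligand. RNA of both was collected at 24 h. A group called T0, also of 3 libraries, held untreated cells from 0 h after the same 18 h without growth factors. The other 18 libraries, with EGF or oncostatin M (OSM) alone or combinations of the 3 ligands, each at 10 ng/ml for 24 h, entered the shared estimate of the spread, and those with EGF or OSM alone also serve as comparison groups for counts of calls in the closing section. The labels do not say whether the 3 libraries of a group came from separate cultures, so the p-values measure the spread between these libraries, which may be technical.

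TGFB binds a pair of receptor kinases, TGFBR1 and TGFBR2, which phosphorylate SMAD2 and SMAD3. These join SMAD4, enter the nucleus and act on target genes together with other factors. In epithelial cells the pathway is known for halting growth, for raising extracellular matrix and actin genes, and for driving parts of the epithelial-mesenchymal transition (EMT), in which cells give up epithelial junctions for a migratory state. Mammary basal cells and keratinocytes, which share many keratins with MCF10A, are textbook responders.

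Library totals were 35.8 M to 43.1 M counts (M, mega) in PBS and 35.3 M to 39.8 M in TGFB, and replicates of a group correlated at r = 0.994 to 0.995 over log2 values across genes, which are not independent replicates. Of 10 mammary epithelial markers, all 10 were detected, and their summed level was 13355 to 14826 scaled counts (CPM, counts scaled to a common library size) in PBS and 18583 to 19903 CPM in TGFB. The largest gains in this sum were in KRT17, ITGB4 and LAMB3, and 8 of the 10 genes were called higher. KRT5 and DSG3 were not called, and DSG3 was lower in every TGFB library than in every PBS library. Of 10 fibroblast and stromal markers, 7 were under 1 CPM in all 6 libraries and COL3A1 was at 0. The list's summed level, 135.5 to 139.8 CPM in PBS and 254 to 258 CPM in TGFB, rose with 2 called genes, COL1A1 and FAP. The leukocyte marker TYROBP was at 0 and the summed leukocyte list was 101 to 112 CPM in PBS and 115 to 124 CPM in TGFB, with CSF1R called higher and CD14 lower. Summed endothelial markers were 31.9 to 36.3 CPM in PBS and 17.2 to 20.1 CPM in TGFB, with CLDN5 at 0, and most of that sum was KDR. Of 7 adipocyte markers LPL was at 0, and the list summed to 8.07 to 8.17 CPM in PBS and 7.17 to 10.7 CPM in TGFB. In these bulk samples, fewer cells of a kind and less RNA per cell cannot be told apart. Mitochondrial transcripts held 2.85 to 3.06% of the counts in PBS and 2.24 to 2.74% in TGFB.

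The comparison of TGFB with PBS asked which genes differed after 24 h of the ligand. Of 16611 rows tested, 5569 (33.5%) were called at an adjusted p under 0.05 in the quasi-likelihood test of edgeR after adjustment by Benjamini and Hochberg. Of the rows tested, 3135 (18.9%) were higher with TGFB and 2434 (14.7%) lower, and these shares are the background for every count of list members below. Upper-quartile scaling gave 2848 higher and 2891 lower, so the balance of the directions depends on the scaling. Most changes were small, and 3597 of the called rows differed by less than 1.5-fold. With an added limit of 2-fold, 919 rows (5.53%) were called, 645 higher (3.88%) and 274 lower (1.65%). At 4-fold or more, 213 rows were higher and 49 lower. The median log2 fold change of all rows was -0.01. On a principal component analysis of the 6 libraries, the leading component held 65.6% of the variance, with the PBS libraries at -29.4 to -26.4 and the TGFB libraries at 26.0 to 30.1.

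**Figure D1:**
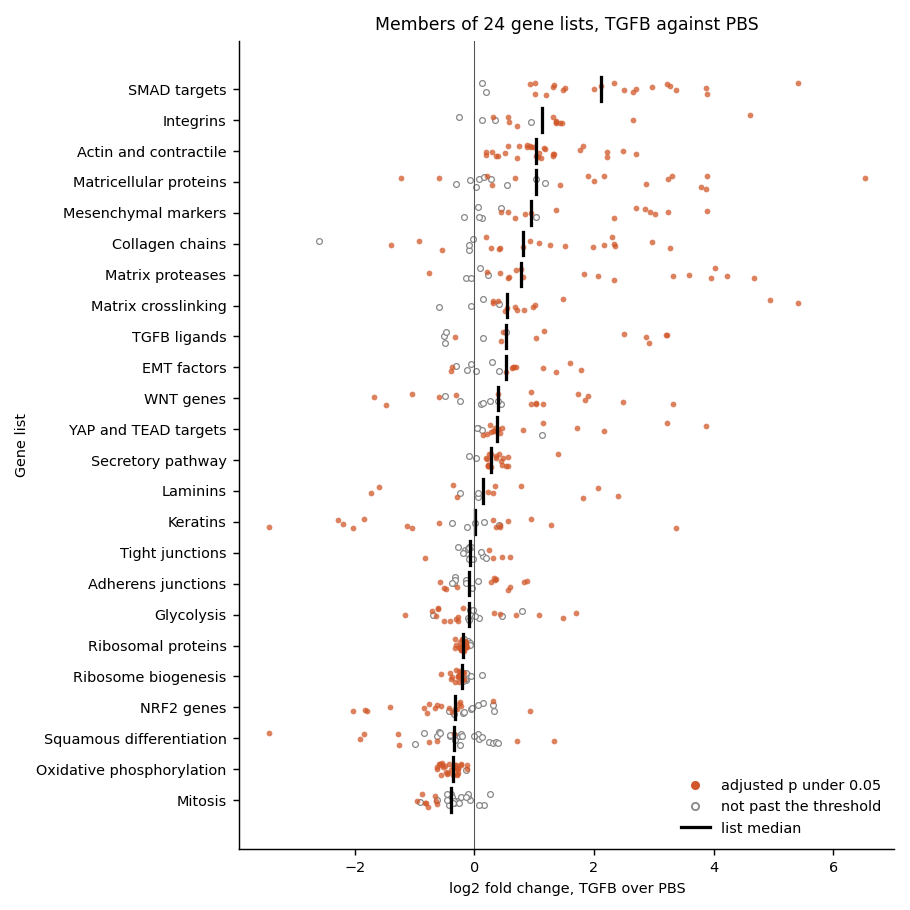
Log2 fold change of TGFB over PBS (horizontal axis) for the tested members of 24 gene lists (rows). Each point is 1 gene, filled where its adjusted p was under 0.05 (edgeR), and the black bars are list medians. Among the 24 lists drawn, SMAD targets had the highest median, 2.11, and the mitosis genes the lowest, -0.40. The prostaglandin genes, not drawn, had a median of -0.42.

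Receptors and SMAD regulators came first in the pathway. Of 9 receptors and co-receptors tested, 5 rose and 2 fell. TGFBR1 (ENSG00000106799, chromosome 9, 99104038 to 99154192, plus strand), the type I receptor kinase, was at 42.2, 38.1 and 40.2 CPM in the PBS libraries and 84.4, 90.9 and 90.3 CPM in the TGFB libraries. Every TGFB library was above every PBS library, with a log2 fold change of 1.14 ± 0.07 (SE; edgeR adjusted p 1.56e-12). ACVR1, a type I receptor for activins and bone morphogenetic proteins (BMPs), rose by 0.84 ± 0.07 (SE; edgeR adjusted p 6.72e-10), and BAMBI, a decoy receptor without a kinase, by 1.06 ± 0.12 (SE; edgeR adjusted p 1.56e-07). TGFBR3, the co-receptor betaglycan, moved the other way, from 58.9, 57.5 and 59.7 CPM in PBS to 25.5, 28.5 and 29.3 CPM in TGFB. The groups lay apart, and it fell below its T0 level of 38 ± 0.581 CPM (SD, n = 3) as well. TGFBR2, the ligand-binding receptor, rose by only 0.23 ± 0.07 (SE; edgeR adjusted p 0.00885). That call was lost without PBS replicate 3 or TGFB replicate 1. ACVR2A fell by 0.25 on the log2 scale, a call lost when any 1 of the 6 libraries or the filter on low counts was left out.

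Of 17 SMADs and regulators, 10 rose and 2 fell, and the genes that moved most were inhibitors of the pathway. SMAD7, which blocks the type I receptor, was at 12.7, 14.6 and 15.7 CPM in PBS and 28.1, 29.5 and 29.2 CPM in TGFB, a log2 fold change of 1.01 ± 0.08 (SE; edgeR adjusted p 1.82e-10). SKIL, the SnoN corepressor, went from 40.6, 33.7 and 37.5 to 101, 105 and 104 CPM. PMEPA1 (ENSG00000124225, chromosome 20, 57648392 to 57711536, minus strand), a membrane protein that sequesters SMADs, was at 48.4, 44.2 and 46.6 CPM in PBS and 505, 476 and 450.2 CPM in TGFB. It was the member of the list with the largest change, 3.36 ± 0.11 (SE; edgeR adjusted p 6.61e-16). LDLRAD4, a relative of PMEPA1 with the same role, rose by 1.85 ± 0.20 (SE; edgeR adjusted p 1.13e-07). The 2 that fell did so slightly: NEDD4L, a ubiquitin ligase for SMADs, by 0.22 and USP15, a deubiquitinase of the receptor, by 0.16 on the log2 scale. The call of NEDD4L was lost without PBS replicates 1 or 2 or TGFB replicate 3 and that of USP15 without TGFB replicate 1. SMAD9, a SMAD that is not in this list, fell by 0.76 on the log2 scale, a call kept when any 1 library was left out.

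Of 15 ligands, latent binding proteins and antagonists of the pathway, 9 rose and 1 fell. TGFB2 was at 0.774, 1.14 and 0.489 CPM in PBS and 7.1, 7.98 and 7.49 CPM in TGFB. INHBA, the subunit of activin A, went from 2.02, 1.31 and 1.81 to 11.6, 12.6 and 14.8 CPM, with a log2 fold change of 2.93 ± 0.20 (SE; edgeR adjusted p 7.12e-11). FST, which encodes follistatin, a binding inhibitor of activin, rose in parallel from 0.325, 0.517 and 0.685 to 4.2, 4.75 and 5.17 CPM. In all of these genes the lowest TGFB library stood above the highest PBS library. Among 17 BMP ligands, antagonists and ID targets, 5 rose and 5 fell. BMP1, which despite its name is a procollagen proteinase, rose by 0.98 ± 0.07 (SE; edgeR adjusted p 2.33e-11), BMPR2 by 0.72 ± 0.08 and BMP6 by 2.82 ± 0.28. BMP7 fell from 0.624, 0.581 and 0.318 CPM to 0.0261, 0.0959 and 0 CPM, levels of under 1 CPM throughout. ID1 and ID2, inhibitors of bHLH factors, fell by 0.37 and 0.44 on the log2 scale (edgeR adjusted p 0.0401 and 0.0314). ID1 lost its call when any 1 of the 6 libraries except PBS replicate 1, or the filter on low counts, was left out, and ID2 without PBS replicates 2 or 3 or TGFB replicate 1 or without the filter on low counts or with only the 6 libraries fitted. Without PBS replicate 2 or TGFB replicate 1 the list had 2 lower genes in place of 5.

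Of 23 genes taken as SMAD targets, 21 rose, and the other two, JUNB and CDKN1A, did not pass the test. The list's median log2 fold change was 2.11, against -0.01 for all rows. TGM2 (ENSG00000198959, chromosome 20, 38127385 to 38166578, minus strand), a transglutaminase that crosslinks matrix proteins, was at 3.87, 4.69 and 4.18 CPM in PBS and 213, 176 and 156 CPM in TGFB. This was the largest rise under the naming rule (called, a mean of 1 CPM or more in the higher group, and groups that do not overlap), 5.41 ± 0.22 (SE; edgeR adjusted p 1.41e-13). CCN2, a matricellular growth factor, went from 2.0, 1.55 and 2.27 to 29.1, 27.2 and 28.3 CPM. FN1 (ENSG00000115414, chromosome 2, 215360440 to 215436073, minus strand), fibronectin, was at 144, 111 and 141 CPM in PBS and 2045, 1956 and 1891 CPM in TGFB, a log2 fold change of 3.90 ± 0.19 (SE; edgeR adjusted p 1.91e-12). TGFBI (ENSG00000120708, chromosome 5, 136028988 to 136063818, plus strand), a secreted matrix protein, held 3570.2, 3227 and 4084 CPM in PBS and 14386, 13248 and 15705 CPM in TGFB, the largest gain in CPM of any gene. NEDD9 rose by 2.97, LTBP2 by 2.51 and SPHK1 by 2.11 on the log2 scale. CDKN1A, the CDK inhibitor p21 and a target through which the pathway is known to stop growth, was at 472, 514 and 445 CPM in PBS and 527, 556 and 483 CPM in TGFB. The groups overlapped, and the log2 fold change was 0.13 ± 0.12 (SE; edgeR adjusted p 0.454). Among the alternatives it passed the test with the replicate number as a block (adjusted p 0.0415, edgeR). CDKN2B, the CDK inhibitor p15, had 0 counts in all 27 libraries, as did its neighbour CDKN2A. A count of 0 allows up to 0.0995 CPM in the shallowest library, for counting error only. MCF10A is known to carry a deletion at this locus.

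**Figure D2:**
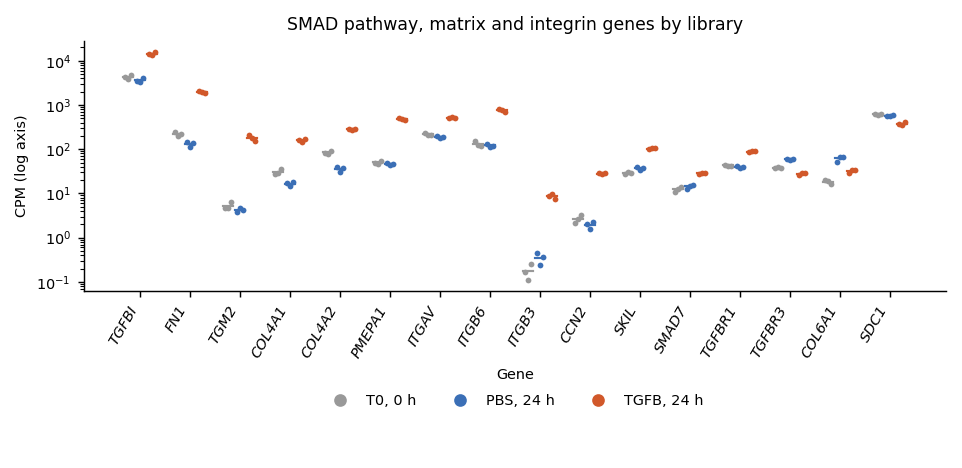
Level in each library (points, CPM on a log axis) and group mean (bars) of 16 genes in T0 (grey), PBS (blue) and TGFB (orange), 3 libraries a group. In 13 of the genes the TGFB libraries lie above the PBS libraries, and in TGFBR3, COL6A1 and SDC1 below them.

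RefSeq promoter windows (GRCh38.p14, 250 bases before to 50 after a start site) were found for 17 of the 23 SMAD targets, 32 windows in all. Neither the palindromic SMAD motif GTCTAGAC nor the CAGA box AGCCAGACA, searched on both strands, was in any of the 32 windows, where 0.202% and 0.288% of all 35116 windows held them. TGM2 had no window. Absence of these letters from a window says nothing of the factor.

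Matrix genes followed. Of 23 collagen chains tested, 16 rose and 3 fell, and the median log2 fold change was 0.81. With 0.5 CPM added to each value, the medians over the PBS mean were 0.50, 0.40 and 0.42 in TGFB replicates 1, 2 and 3. The basement membrane chains COL4A1 (ENSG00000187498, chromosome 13, 110148963 to 110307157, minus strand) and COL4A2 (ENSG00000134871, chromosome 13, 110305812 to 110513209, plus strand), neighbours that start from a shared promoter region on opposite strands, led the list. COL4A1 was at 16.9, 14.8 and 17.9 CPM in PBS and 161, 149 and 168 CPM in TGFB, and COL4A2 at 39.9, 30.7 and 38.4 and 293, 274 and 284 CPM. The groups were far apart in both, with log2 fold changes of 3.27 ± 0.14 and 2.97 ± 0.11 (SE; edgeR adjusted p 6.46e-14 and 2.35e-15). COL1A1, a chain of the fibrillar collagen of stroma, went from 37.4, 36.1 and 42.7 to 109, 105 and 118 CPM. COL8A1 rose by 2.35 ± 0.11 (SE), COL12A1 by 1.98 and COL7A1, the anchoring fibril collagen of the epidermal basement membrane, by 0.92. Chains of collagen VI split: COL6A3 rose by 2.17, while COL6A1 fell from 51.7, 65.7 and 68.1 CPM to 29.5, 34.2 and 33.4 CPM and COL6A2 from 3.87, 4.5 and 5.14 to 1.77, 1.63 and 1.75 CPM. COL6A1 had been lower still at T0, 18.5 ± 1.54 CPM (SD, n = 3). COL3A1 was below the filter.

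Laminins moved in both directions. Of 14 laminin and basement membrane genes, 7 rose and 4 fell. LAMB3, a laminin chain of the basal epithelial anchor, rose from 380.1, 357 and 350.4 CPM in PBS to 1604, 1510.0 and 1424 CPM in TGFB. LAMA3, another of these chains, rose from 489, 426 and 453 to 1700.3, 1529.8 and 1587 CPM. Their log2 fold changes were 2.06 ± 0.10 and 1.82 ± 0.09 (SE; edgeR adjusted p 1.32e-13 and 1.54e-13). At T0 they had stood at 661 ± 11.2 and 739 ± 25.5 CPM (SD, n = 3), above their PBS libraries. LAMB1, LAMB2, LAMA4 and the laminin linker NID1 fell, by 0.29, 0.36, 1.60 and 1.74 on the log2 scale.

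Of 25 matricellular proteins and glycoproteins, 14 rose and 2 fell, with a median of 1.02. It was 1.13 with 2 genes of 3 counts or fewer in a group set at a floor of 3 counts. With 0.5 CPM added to each value, which damps changes of low genes, the medians over the PBS mean were smaller. They were 0.45, 0.40 and 0.46 in TGFB replicates 1, 2 and 3. CCN1, a relative of CCN2, rose from 6.99, 6.72 and 5.77 to 29.1, 28 and 30.3 CPM, and POSTN, periostin, from 0.40, 0.452 and 0.416 to 4.15, 4.22 and 3.66 CPM. TNC, tenascin C, and VCAN, versican, rose by 3.79 and 3.31 on the log2 scale. MFAP2, a microfibril protein, had 0 counts in the 3 PBS libraries and 33 counts over the 3 TGFB libraries. It was 12-fold higher with PBS set at a floor of 3 counts over the group and the 33 counts taken as exact. BGN, the proteoglycan biglycan, and SDC1, syndecan-1 of the epithelial surface, fell. SDC1 was at 553, 569 and 594 CPM in PBS and 366, 359 and 410.3 CPM in TGFB, a log2 fold change of -0.60 ± 0.08 (SE; edgeR adjusted p 3.72e-06). Among 17 genes of matrix crosslinking and collagen processing, 13 rose. Besides TGM2, the collagen hydroxylases P4HA3 and PLOD2 stood out: P4HA3 went from 0.30, 0.388 and 0.0978 to 11.1, 7.48 and 6.21 CPM and PLOD2 from 67.5, 63.6 and 64.1 to 179.8, 176 and 189 CPM.

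Of 21 matrix proteases and inhibitors, 16 rose and 1, MMP7, fell. MMP2, the type IV collagenase gelatinase A, was at 10.6, 10.5 and 13.3 CPM in PBS and 60.9, 53.7 and 58.7 CPM in TGFB, a rise of 2.33 ± 0.12 (SE; edgeR adjusted p 8.62e-13). MMP13, collagenase 3, went from 0.749, 0.947 and 0.611 to 16, 13.5 and 14.2 CPM, and MMP10 from 0.1249, 0.0215 and 0.0489 to 1.07, 0.983 and 1.18 CPM. MMP1 was called with 9 counts over the 3 TGFB libraries and 0 in PBS, and lost its call without TGFB replicate 2. It was 3.28-fold higher with PBS set at the same floor and the 9 counts taken as exact. MMP7 fell from 33.6, 43.5 and 40.7 CPM to 19.4, 26.2 and 24.3 CPM, a call lost without PBS replicates 2 or 3 or TGFB replicate 1. In the plasminogen system 4 of 7 genes rose and 1 fell. PLAU, the activator urokinase, rose from 77.9, 79.9 and 69.9 to 214, 230.0 and 219 CPM, and SERPINE2, an inhibitor of it, from 2.42, 1.98 and 2.54 to 26.3, 20.6 and 22.2 CPM. SERPINB2, another inhibitor, fell by 0.62 on the log2 scale (edgeR adjusted p 0.00119).

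Integrins, the receptors for this matrix, rose as a list: 12 of 16 were called higher, and the median log2 fold change was 1.14. The change was largest in ITGB3 (ENSG00000259207, chromosome 17, 47253827 to 47313743, plus strand), which went from 0.449, 0.237 and 0.367 CPM in PBS to 8.58, 9.5 and 7.54 CPM in TGFB. ITGB6 (ENSG00000115221, chromosome 2, 160099667 to 160200313, minus strand), whose product pairs with ITGAV to activate latent TGFB, was at 134, 113 and 118 CPM in PBS and 812, 766 and 708 CPM in TGFB. It rose by 2.65 ± 0.14 (SE; edgeR adjusted p 3.29e-12). ITGAV itself went from 195, 179 and 186 to 518, 522 and 509.8 CPM, with no overlap. ITGB4 and ITGA6, which bind laminin in hemidesmosomes, rose by 1.32 ± 0.08 and 0.72 ± 0.09 (SE). The subunits ITGA1, ITGA2 and ITGA5 rose by 1.37, 1.42 and 1.37. Of the 16, 11 were lower in PBS than at T0 and 1 was higher, while with TGFB 9 were above T0 and 2 below. Against T0, 5464 of all rows (32.9%) were called in PBS, 2515 higher (15.1%) and 2949 lower (17.8%). With TGFB, 7907 rows (47.6%) were called against T0, 4101 higher (24.7%) and 3806 lower (22.9%). The 3 comparisons share libraries, so they are given side by side.

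All 29 actin and contractile genes tested rose, with log2 fold changes from 0.19 to 2.70 and a median of 1.03. The alternatives called 27 to 29 of them. ACTB (ENSG00000075624, chromosome 7, 5526409 to 5563902, minus strand), cytoplasmic beta-actin, was at 1495, 1526 and 1609 CPM in PBS and 3715, 3775 and 4029.7 CPM in TGFB. Its TGFB libraries were above the T0 mean of 3019 ± 291 CPM (SD, n = 3) and its PBS libraries below it. ACTG1, gamma-actin, went from 1684, 1689 and 1716 to 3436, 3595 and 3759 CPM. TAGLN, the actin-binding protein transgelin of smooth muscle, rose from 24.3, 20.6 and 20.5 to 128, 147 and 149 CPM, and MYL9, the regulatory light chain of non-muscle and smooth muscle myosin, from 8.37, 6.82 and 7.63 to 39.7, 43.4 and 44.9 CPM. Their changes were 2.70 ± 0.20 and 2.49 ± 0.20 (SE; edgeR adjusted p 1.28e-09 and 2.87e-09). The crosslinkers FLNA and ACTN1 rose by 1.77 and 1.81, tropomyosin TPM4 by 1.32, and the focal adhesion proteins ZYX and VCL by 0.89 and 0.74 on the log2 scale. ACTA2, smooth muscle actin and the usual mark of a myofibroblast, rose less, from 9.01, 9.06 and 6.63 to 14.6, 11.7 and 10.4 CPM, and its call was lost without PBS replicate 3 or TGFB replicate 1. Actin genes are close in sequence, so reads may have been divided between them. Set against T0, 20 of the 29 were lower in PBS and 2 higher, and with TGFB 25 were higher and 2 lower.

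Serum response factor is known to bind the CArG box, a run of 6 A or T between CC and GG, in many actin genes. Windows were found for 25 of the 29 genes, and 7 of their 46 windows (15.2%) held a CArG box, against 1.29% of all 35116 windows. These stretches from 6 of the genes show the box in capitals, 5′ to 3′ on the gene's strand, with 20 bases to either side; ACTG2, the seventh, also held it and is not printed. A match is a description of the letters and no evidence of binding. The box is known in genes of this kind, and all 29 rose, so those that rose could not be compared with others of the list.
ACTG1 (chr17:81512864-81512913, strand -): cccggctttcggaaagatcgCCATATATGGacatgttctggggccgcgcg
FLNA (chrX:154374699-154374748, strand -): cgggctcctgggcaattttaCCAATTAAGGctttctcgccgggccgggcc
CNN2 (chr19:1026499-1026548, strand +): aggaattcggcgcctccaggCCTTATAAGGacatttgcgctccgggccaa
TPM4 (chr19:16067345-16067394, strand +): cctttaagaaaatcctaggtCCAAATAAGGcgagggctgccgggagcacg
ACTN1 (chr14:68977708-68977757, strand -): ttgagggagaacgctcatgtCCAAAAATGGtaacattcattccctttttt
TGFB1I1 (chr16:31473134-31473183, strand +): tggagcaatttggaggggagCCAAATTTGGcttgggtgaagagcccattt
In TGFB against PBS these genes had log2 fold changes of 1.08 (ACTG1), 1.77 (FLNA), 1.34 (CNN2), 1.32 (TPM4), 1.81 (ACTN1) and 1.16 (TGFB1I1).

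**Figure D3:**
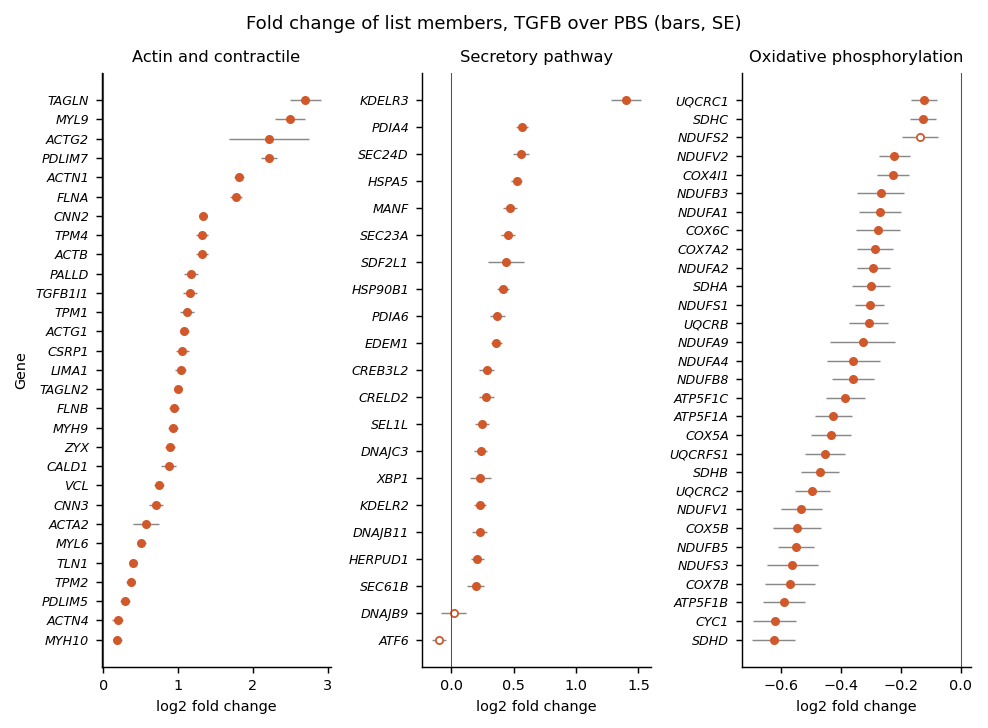
Log2 fold change of TGFB over PBS with its SE (horizontal axis, bars) for the members (rows) of the actin, secretory pathway and oxidative phosphorylation lists, filled where the adjusted p was under 0.05 (edgeR). All 29 actin genes lie above 0, up to 2.70 in TAGLN, and all 30 oxidative phosphorylation genes lie below 0, down to -0.63 in SDHD.

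YAP and TEAD factors act on a gene set that responds to tension and spreading. Of 20 such genes, 16 rose, with a median of 0.37. CCN2 and CCN1 have been given above. F3, tissue factor, rose by 1.71, TEAD2 by 1.15 and NUAK2 by 0.80, while ANKRD1, a standard YAP target, did not pass the test (log2 fold change 1.13 ± 0.46 SE; edgeR adjusted p 0.0609). A motif match is no evidence of binding, this list is of known targets, and genes that rose were not compared with the others. The motif CATTCC, bound by TEAD factors, was in 10 of 20 windows of 15 genes (50%), against 14% of all windows, on either strand. CCN2, the gene of this list with the largest change, held it 3 times on the opposite strand, where it reads GGAATG, in capitals here, and the later 2 stretches overlap.
CCN2 (chr6:131951516-131951561, strand -): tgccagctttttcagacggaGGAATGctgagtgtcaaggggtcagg
CCN2 (chr6:131951451-131951496, strand -): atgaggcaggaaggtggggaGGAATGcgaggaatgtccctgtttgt
CCN2 (chr6:131951442-131951487, strand -): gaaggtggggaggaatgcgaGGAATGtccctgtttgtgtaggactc

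EMT was read from transcription factors, mesenchymal markers and junction genes. Of 17 EMT transcription factors, 9 rose and 2 fell. SOX4 was at 89.1, 85.7 and 82.1 CPM in PBS and 306, 302 and 280.1 CPM in TGFB, a rise of 1.79 ± 0.16 (SE; edgeR adjusted p 2.33e-08). SNAI2, Slug, which basal cells express at rest, went from 107, 104 and 98 to 159, 142 and 143 CPM, and ETS1 from 27.2, 24.3 and 23.3 to 62, 67 and 63.7 CPM. SNAI1, Snail, rose from 0.225, 0.151 and 0.171 to 0.417, 0.743 and 0.492 CPM and stayed under 1 CPM. ZEB1 was not called, with a log2 fold change of 0.41 ± 0.16 (SE; edgeR adjusted p 0.055), but passed the test with the replicate block (adjusted p 0.0409, edgeR). ZEB2 and TWIST1, factors held to repress CDH1, fell by 0.39 and 0.37 (edgeR adjusted p 0.0137 and 0.0257). The call of ZEB2 was lost without PBS replicate 1 or TGFB replicate 2, and that of TWIST1 without PBS replicates 2 or 3 or TGFB replicates 1 or 3.

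Of 19 mesenchymal markers, 13 rose, with a median of 0.94. CDH2 (ENSG00000170558, chromosome 18, 27932879 to 28177946, minus strand), N-cadherin, was at 2.85, 3.16 and 3.01 CPM in PBS and 20.4, 22.1 and 23 CPM in TGFB, a log2 fold change of 2.86 ± 0.10 (SE; edgeR adjusted p 7.50e-16). VIM, the intermediate filament vimentin, was present in PBS at 442, 418 and 394 CPM and reached 875, 780.2 and 752 CPM. FAP, a serine protease of activated fibroblasts, went from 6.47, 5.81 and 6.75 to 50.8, 50.3 and 43.8 CPM. Compared with T0, 11 of the 19 were lower in PBS and 1 higher, and with TGFB 12 were higher and 3 lower. The summed fibroblast markers, given above, rose through COL1A1 and FAP, the latter also named here, so the sum is not separate from this list. Of those 10 markers, 7 were under 1 CPM in all 6 libraries. DCN, another of them, was not called, at 95.2, 94.0 and 85.4 CPM in PBS and 95.0, 97.9 and 95.6 CPM in TGFB.

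Epithelial junction genes did not fall together. Of 20 adherens junction genes and epithelial factors, 8 rose and 4 fell, with a median of -0.09. Upper-quartile scaling gave 7 and 7, the fits with the replicate block or of the 6 libraries alone 8 and 8, and without PBS replicate 3 or TGFB replicate 1 the lower count was 2 or 1. CDH1, E-cadherin, the loss of which defines a full EMT, was at 510.4, 532 and 503 CPM in PBS and 668, 675 and 624 CPM in TGFB. Every TGFB library was higher, by 0.35 ± 0.13 on the log2 scale (SE; edgeR adjusted p 0.0375), but the call was lost under upper-quartile scaling (adjusted p 0.0559, edgeR) and without PBS replicates 1, 2 or 3 or TGFB replicates 1 or 2 or without the filter on low counts. CDH3, the P-cadherin of basal cells, rose from 489, 482 and 468 to 898, 859 and 814 CPM and CTNNB1, beta-catenin, from 271, 289 and 272 to 515, 528 and 491 CPM. The epithelial transcription factors KLF5, EHF and GRHL1 fell by 0.51, 0.58 and 0.47 (edgeR adjusted p 3.14e-08, 0.015 and 0.0122), and ESRP2, a splicing factor of epithelial cells, by 0.29. The call of EHF was lost without PBS replicate 2 or TGFB replicate 1 and that of GRHL1 without PBS replicate 3 or TGFB replicate 1. Among 18 tight junction genes 4 rose, TJP1 by 0.31 ± 0.05 (SE), and 1 fell, TJP3. The share called, 27.8%, was under the 33.5% of all rows. Of 18 desmosome and hemidesmosome genes 5 rose, among them DSC2 by 0.55 ± 0.11 (SE), and DST and DSG4 fell, calls lost without PBS replicate 1 or with only the 6 libraries fitted for DST and, for DSG4, without any 1 library but PBS replicate 1 or without the filter on low counts.

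Keratins moved in both directions. Of 21 tested, 8 rose and 8 fell, with a median of 0.00 that changed sign with the scaling. KRT10 (ENSG00000186395, chromosome 17, 40818117 to 40822614, minus strand), the keratin of cells that have left the basal layer of the epidermis, was at 2449, 3213 and 3833 CPM in PBS and 608, 797 and 1237 CPM in TGFB. At T0 it was at 402, 508 and 542 CPM. The PBS libraries stood far above both other groups, with a log2 fold change of -1.85 ± 0.26 for TGFB over PBS (SE; edgeR adjusted p 9.39e-06), 2.71 ± 0.26 for PBS over T0 (edgeR adjusted p 1.70e-07) and 0.86 ± 0.25 for TGFB over T0 (edgeR adjusted p 0.00739). KRT1 (ENSG00000167768, chromosome 12, 52674736 to 52680407, minus strand), its partner in the keratin pair, repeated this: 5.75, 4.56 and 4.04 CPM at T0, 80.9, 85.2 and 110.3 CPM in PBS and 4.64, 6.86 and 14.1 CPM in TGFB. The fall against PBS, -3.43 ± 0.37 (SE; edgeR adjusted p 3.11e-07), was the largest under the naming rule. TGFB libraries did not differ detectably from T0 in KRT1 (log2 fold change 0.83 ± 0.37 SE; edgeR adjusted p 0.0738). KRT15 (ENSG00000171346, chromosome 17, 41513745 to 41522529, minus strand), a keratin of basal and progenitor cells, behaved otherwise: 1683, 1531 and 941 CPM at T0, 1667, 1663 and 1405 CPM in PBS and 388, 421 and 353 CPM in TGFB, so that TGFB was below both. KRT13 and KRT4, the pair of non-keratinized stratified epithelium, fell by 2.28 and 2.20 (edgeR adjusted p 1.95e-07 and 2.03e-04).

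The keratins that rose included those of activated epidermis. KRT17 was at 2561, 2536 and 3106 CPM in PBS and 4918, 5106 and 5833 CPM in TGFB, KRT6A at 3726, 4257 and 4402 and 5728, 6105 and 6407 CPM, and KRT6B at 67.7, 87.1 and 80.2 and 179, 189 and 199.9 CPM. KRT16, usually expressed with them, fell from 1987, 2413 and 2023 to 1371, 1510.4 and 1368 CPM, a call lost without PBS replicate 2. Copies of KRT6, KRT14, KRT16 and KRT17 are near-identical in part, so reads may have been divided between them. The basal keratin KRT5 did not pass the test (-0.12 ± 0.06 SE; edgeR adjusted p 0.131), though it was called lower under upper-quartile scaling and without TGFB replicate 3, and KRT14 rose by 0.31 ± 0.10 (SE; edgeR adjusted p 0.0161), a call lost without PBS replicate 1 or TGFB replicate 3 or with only the 6 libraries fitted.

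**Figure D4:**
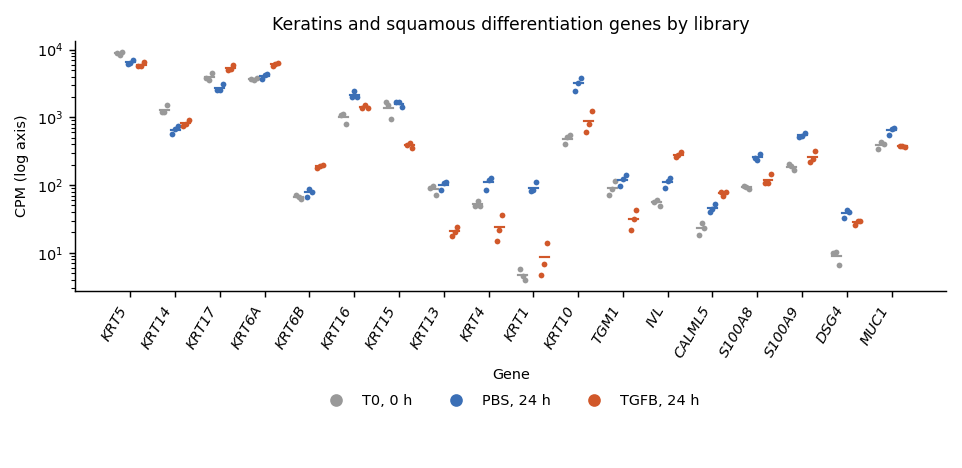
Level in each library (points, CPM on a log axis) and group mean (bars) of 18 keratin and squamous genes in T0 (grey), PBS (blue) and TGFB (orange), 3 libraries a group. KRT1 and KRT10 are highest in PBS, and KRT15, KRT13 and TGM1 are lower in TGFB than in both other groups.

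Among 31 genes of squamous differentiation, 8 fell and 2 rose, with a median of -0.34. Thus 32.3% were called, against 33.5% of all rows, and 25.8% were lower, against 14.7%. Per library, the median log2 difference from the PBS mean was -0.51, -0.40 and -0.04 in TGFB replicates 1, 2 and 3. In PBS replicates 1, 2 and 3 it was -0.21, -0.02 and 0.23. The lower count was 12 under upper-quartile scaling and 14 with the replicate block, 5 without PBS replicate 2 or PBS replicate 3 and 4 without TGFB replicate 1. TGM1, the transglutaminase of the cornified envelope, was at 98.2, 122 and 139 CPM in PBS and 21.4, 32 and 42.5 CPM in TGFB. FLG, filaggrin, fell by 1.26, KLK11 by 1.27 and ZNF750, an epidermal transcription factor, by 0.62. IVL, involucrin, an envelope protein, went up instead, from 91.3, 116 and 127 to 260.0, 274 and 307 CPM (1.33 ± 0.14 SE; edgeR adjusted p 1.56e-07), as did CALML5. None of 6 tested SPRR genes of this list was called, while SPRR2G, outside the list, rose by 4.33 on the log2 scale from levels near 0. Against T0, 23 of the 31 were higher in PBS, and with TGFB 20 were higher and 3 lower. In the S100 and SERPINB list 6 of 21 rose and 8 fell. S100A8, which forms calprotectin with S100A9, fell from 253, 231 and 284 CPM in PBS to 106, 108 and 147 CPM in TGFB, with T0 at 92.7 ± 5.42 CPM (SD, n = 3). S100A9 fell from 514, 530.4 and 588 CPM in PBS to 217, 239.7 and 316 CPM in TGFB, with T0 at 188 ± 18.2 CPM (SD, n = 3). S100A10 and SERPINB5, maspin, rose by 1.07 ± 0.07 and 0.94 ± 0.05 (SE).

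Cell-cycle genes were low in PBS already. All 30 mitosis genes were lower in PBS than at T0 and all 30 lower in TGFB than at T0, with median log2 fold changes of -2.55 and -2.84. Between TGFB and PBS 8 of the 30 fell, with a median of -0.40. This count was 5 without PBS replicate 1, 3 without PBS replicate 3, 4 without TGFB replicate 1, 3 without TGFB replicate 2, 5 without the filter on low counts and 12 under DESeq2. KIF20A, a kinesin of cytokinesis, was at 11, 7.32 and 10.1 CPM in PBS and 5.53, 4.6 and 4.32 CPM in TGFB, against 65.1 ± 14 CPM at T0 (SD, n = 3). Of 34 DNA replication genes, 1 rose (MCM7, by 0.42 ± 0.12 SE, a call lost without PBS replicate 3) and 2 fell (CDT1 and GINS3), a count of 3 that ranged from 1 without PBS replicate 2 or TGFB replicate 2 to 9 when only the 6 libraries were fitted and 10 with the replicate block. The call of CDT1 was lost without PBS replicates 1 or 2 or TGFB replicates 2 or 3 or without the filter on low counts, and that of GINS3 without PBS replicate 2 or TGFB replicate 2. Of 28 G1 regulators 6 fell and 2 rose. Thus 28.6% of the G1 regulators, 26.7% of the mitosis genes and 8.82% of the replication genes were called, against 33.5% of all rows. The called mitosis genes were all lower, where 14.7% of all rows were lower. MYC, whose fall is a textbook part of the TGFB growth arrest, was at 252, 255 and 247 CPM in PBS and 195, 189 and 197 CPM in TGFB, a log2 fold change of -0.38 ± 0.09 (SE; edgeR adjusted p 0.00185). E2F1 and E2F2 fell by 0.95 and 1.14, E2F7 rose by 0.86, and CDK2 rose by 0.64 ± 0.09 (SE; edgeR adjusted p 6.59e-06).

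Secreted factors and their receptors gave some of the steepest rises. Of 18 genes for platelet-derived (PDGF), vascular and fibroblast (FGF) growth factors and receptors, 9 rose and 3 fell. PDGFB (ENSG00000100311, chromosome 22, 39223359 to 39244982, minus strand), a mitogen for mesenchymal cells, was at 0.20, 0.151 and 0.22 CPM in PBS and 5.77, 6.23 and 6.04 CPM in TGFB. FGF2 rose from 1.22, 1.72 and 1.17 to 4.91, 4.8 and 4.48 CPM. FGFR3, a receptor of differentiating epithelium, fell from 122, 124 and 148 to 41.5, 43.2 and 53.7 CPM and KDR from 28.6, 31.2 and 30.7 to 14.6, 17.6 and 17.2 CPM. FGFBP1, a carrier that frees FGFs from matrix, fell by 2.22 (edgeR adjusted p 4.83e-05). Of 23 WNT genes, 11 rose and 5 fell. WNT5B and WNT7A went up by 3.32 ± 0.32 and 2.48 ± 0.28 (SE), while WNT4 and WNT10A fell by 1.68 and 1.47 on the log2 scale. Of 33 guidance genes 16 rose and 6 fell, the largest changes being in SLIT3, from 0.25, 0.194 and 0.171 to 3.97, 2.93 and 2.62 CPM, and SEMA7A, from 0.574, 0.646 and 0.807 to 7.15, 7.17 and 7.24 CPM, which has 2 rows of equal values in the table. UNC5B, a netrin receptor, fell from 412, 450.4 and 438 to 196, 207 and 204 CPM. The count of 6 lower was 2 without PBS replicate 3 and 3 without TGFB replicate 1. In the Notch pathway 3 of 16 rose, with JAG1, a ligand, from 37.3, 33.2 and 35.7 to 83.8, 78.1 and 82.1 CPM. These 3 are 18.8% of the list, where 18.9% of all rows rose and 33.5% were called. Under DESeq2 5 Notch genes were called, 1 of them lower.

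Of 20 ERK target and feedback genes, 10 rose and 1 fell (MYC), with a median of 0.38. DUSP6, an ERK phosphatase, went from 5.82, 5.1 and 5.26 to 10.5, 10.1 and 10.5 CPM and ETV5 from 2.77, 2.91 and 2.4 to 11, 8.51 and 7.85 CPM. In the EGF family, EPGN and EREG fell by 1.56 and 0.92 and NRG1 rose by 1.34 ± 0.26 (SE), as did EGFR, the receptor, by 0.46 ± 0.05 (SE; edgeR adjusted p 3.99e-07). Of this family 28.6% were called, against 33.5% of all rows. Of 23 genes for gp130 cytokines, their receptors and STAT3 targets, 8 rose and 4 fell. IL11 was at 0.549, 0.28 and 0.367 CPM in PBS and 2.4, 2.25 and 2.79 CPM in TGFB. CLCF1 went from 3.15, 2.91 and 3.23 to 7.67, 8.51 and 7.63 CPM. IL6 had 0 counts in PBS and 32 over the TGFB libraries. It was 11.7-fold higher with PBS set at a floor of 3 counts over the group and the 32 counts taken as exact. The acute-phase genes SAA1 and SAA2, near-identical copies, fell by 0.79 and 0.82, the latter a call lost without PBS replicate 2 or TGFB replicates 1 or 3, and BCL6 by 0.77.

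Of 26 chemokines and cytokines 11 rose and 2 fell. CXCL8, a neutrophil attractant, was at 3.7, 3.1 and 1.83 CPM in PBS and 7.57, 8.92 and 10.1 CPM in TGFB, and IL32 went from 8.29, 10.0 and 11.3 to 23.2, 33.5 and 35.2 CPM. IL1B and CSF3 fell by 0.75 and 1.00, calls lost without PBS replicate 3 or TGFB replicates 1 or 2 for IL1B and, for CSF3, without any 1 library but PBS replicate 1, without the filter on low counts or with the replicate block (adjusted p 0.0513, edgeR). Among 16 NF-kB factors and feedback genes 4 rose, TRAF1 by 1.64 and REL by 0.68 ± 0.09 (SE), and BIRC3 and NFKBIZ fell, the call of NFKBIZ being lost without PBS replicates 2 or 3 or TGFB replicates 1 or 3 or without the filter on low counts. Of 30 interferon-stimulated genes 8 fell and 4 rose, with a median of 0.03: OAS1 and OAS2 fell by 0.94 and 0.94, and ISG20 rose by 0.87 ± 0.16 (SE). In the list of 12 genes for MHC class I presentation 4 rose and 2 fell, B2M and TAP2, the call of B2M being lost without PBS replicates 1 or 2 or TGFB replicates 1 or 3. The highest riser was the chaperone CALR, from 380.5, 395 and 382 to 626, 587 and 599 CPM. TAP2 was read on a copy from an alternate locus and may share reads with other rows. Of 24 apoptosis regulators 7 rose and 3 fell, and without PBS replicate 3 or TGFB replicate 2 the total of 10 was 6. Of 18 p53 targets 4 rose and 3 fell, the total of 7 becoming 4 without PBS replicate 3. Among 12 prostaglandin genes 6 fell and 3 rose, with a median of -0.42. PLA2G4F (ENSG00000168907, chromosome 15, 42139034 to 42156636, minus strand), a phospholipase that frees fatty acids from membranes, fell from 54.8, 63.2 and 62 to 9.11, 11 and 12.8 CPM, and HPGD, which degrades prostaglandins, from 39.4, 41.4 and 44.9 to 15.1, 18.3 and 20.0 CPM. The receptors PTGER2 and PTGER4 rose by 1.52 ± 0.22 and 1.73 ± 0.24 (SE). Of 15 glucocorticoid-responsive genes 5 rose and 4 fell: ANGPTL4 went from 30.3, 25.3 and 33.7 to 149, 129 and 155 CPM, and TSC22D3, GILZ, from 379, 396 and 374 to 221, 221 and 209 CPM.

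Most of the listed nuclear genes of oxidative phosphorylation, the ribosome and its biogenesis fell by small amounts. Of 30 nuclear genes of oxidative phosphorylation, 29 fell, with log2 fold changes from -0.63 to -0.12 and a median of -0.36. Upper-quartile scaling called all 30. SDHD, a membrane anchor of complex II, was at 117, 116 and 117 CPM in PBS and 65.5, 82.7 and 78.5 CPM in TGFB, CYC1 of complex III at 224, 258 and 258 and 156, 161 and 163 CPM, and ATP5F1B of the ATP synthase at 1042, 1192 and 1193 and 709, 762 and 803 CPM. In these genes all TGFB libraries were below all PBS libraries. Against T0, all 30 were lower with TGFB (median -0.39), whereas in PBS 3 were higher and 6 lower (median -0.03). The 13 proteins encoded by mitochondrial DNA had a median of -0.18, and 0 passed edgeR's adjusted threshold. At an unadjusted p under 0.05, 4 were lower, DESeq2 called 1, upper-quartile scaling 2, the replicate block 2 and the fit without TGFB replicate 3 called 4, all lower. The share of mitochondrial counts, given above, was lower in every TGFB library than in every PBS library, and its part in these results was not tested.

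Nuclear respiratory factor 1 is known to bind a GC-rich motif at many genes of the respiratory chain. The motif GCGCNTGCGC, in which N is any base, was in 6 of 26 windows of 22 of these genes (23.1%), against 5.78% of all windows. These stretches show it in capitals in SDHD, the gene with the largest fall, and in UQCRFS1 of complex III, which fell by 0.45. Here too a match is no evidence of binding. The motif is known for genes of this kind, the windows were not matched for GC content, and genes that fell were not compared with others.
SDHD (chr11:112086743-112086792, strand +): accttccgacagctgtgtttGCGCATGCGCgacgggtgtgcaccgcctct
UQCRFS1 (chr19:29213153-29213202, strand -): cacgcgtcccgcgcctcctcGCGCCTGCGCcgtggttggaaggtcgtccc

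Of 30 ribosomal proteins 25 fell, with a median of -0.19, and 15 without PBS replicate 2. RPL3 was at 2181, 2322 and 2277 CPM in PBS and 1726, 1843 and 1874 CPM in TGFB. Ribosomal protein genes have many processed copies, so some reads may have been divided. Of 26 ribosome biogenesis genes 16 fell, with a median of -0.21, and 10 without PBS replicate 2 or TGFB replicate 2. POLR1B, a subunit of RNA polymerase I, went from 65.8, 67.7 and 63 to 43.9, 43.8 and 46.2 CPM. The elongation factors EEF1A1 and EEF2 fell by 0.21 and 0.27 (edgeR adjusted p 0.00558 and 2.60e-04). Changes of this size are relative to the scaling, which moved the median of all rows from -0.01 to -0.04 under the upper quartile.

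Genes of the secretory pathway rose by small amounts. Of 21 genes of the unfolded protein response and secretory pathway, 19 rose, with a median of 0.29. HSPA5, the chaperone BiP of the endoplasmic reticulum, rose by 0.52, PDIA4, a disulfide isomerase, from 113, 113 and 107 to 167, 163 and 162 CPM, and SEC24D, a COPII coat protein for collagen export, from 22.4, 23.5 and 23.4 to 36, 32.8 and 33.3 CPM. KDELR3, a retrieval receptor of the Golgi, changed most, from 2.72, 3.25 and 2.93 to 7.07, 7.53 and 8.99 CPM (1.40 ± 0.12 SE; edgeR adjusted p 1.13e-09). DNAJB9 and ATF6 did not pass the test. The ER stress response element, which ATF6 and NF-Y are known to bind, is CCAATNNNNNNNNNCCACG. It was in 5 of 23 windows of 19 of these genes (21.7%), against 0.0769% of all windows. The stretches below show it in capitals, on either strand, in 5 genes that rose; HSP90B1 held a further match that is not printed.
HSPA5 (chr9:125241371-125241429, strand -): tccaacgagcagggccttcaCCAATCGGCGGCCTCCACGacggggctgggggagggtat
HSP90B1 (chr12:103930196-103930254, strand +): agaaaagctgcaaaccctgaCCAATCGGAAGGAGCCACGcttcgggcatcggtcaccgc
PDIA6 (chr2:10812833-10812891, strand -): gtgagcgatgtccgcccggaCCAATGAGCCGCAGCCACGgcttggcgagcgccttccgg
XBP1 (chr22:28800583-28800641, strand -): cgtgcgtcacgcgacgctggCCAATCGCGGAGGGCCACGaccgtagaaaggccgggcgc
CRELD2 (chr22:49918534-49918592, strand +): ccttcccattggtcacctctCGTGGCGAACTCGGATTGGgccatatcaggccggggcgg
Their log2 fold changes were 0.52 (HSPA5), 0.41 (HSP90B1), 0.37 (PDIA6), 0.24 (XBP1) and 0.28 (CRELD2). This list was chosen for the unfolded protein response, and a match is no evidence of binding.

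Of 29 genes of the NRF2 response and detoxification, 17 fell and 2 rose, with a median of -0.33. GPX2, a glutathione peroxidase, was at 67.6, 77.7 and 79.6 CPM in PBS and 16.5, 18.5 and 20.3 CPM in TGFB, a log2 fold change of -2.02 ± 0.13 (SE; edgeR adjusted p 8.04e-12). At T0 it had been at 19.1 ± 2.42 CPM (SD, n = 3), and TGFB did not differ detectably from that level (-0.05 ± 0.13 SE; edgeR adjusted p 0.752). ALDH3A1, an aldehyde dehydrogenase, fell from 518, 517 and 699 to 137, 148 and 216 CPM, below T0, and AKR1B10 from 23.6, 20.0 and 29.2 to 6.86, 6.16 and 7.38 CPM. AKR1C1 fell by 1.41 while AKR1C2 and AKR1C3 rose by 0.93 and 0.32, the call of AKR1C3 being lost without PBS replicates 1 or 2 or TGFB replicate 3. These paralogs are near-identical, so how their reads were divided is uncertain. Enzymes of the pentose phosphate pathway, which supplies NADPH, were among those that fell: TKT by 0.56 and PGD by 0.43.

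Glucose and lipid genes were mixed. Of 26 genes of glycolysis and hypoxia 11 fell and 6 rose. HK2, hexokinase 2, was at 43.3, 46.5 and 50.5 CPM in PBS and 18.9, 21.3 and 22.6 CPM in TGFB, and SLC2A1, the glucose transporter GLUT1, went from 231, 228 and 254 to 146, 149 and 160.2 CPM. NDRG1 rose from 345, 314 and 333 to 724, 665 and 711 CPM. In the amino acid and ATF4 list 10 of 25 fell and 3 rose, with PSAT1 of serine synthesis at 43, 40.9 and 45.5 CPM in PBS and 17.7, 21.2 and 25 CPM in TGFB. Of 29 cholesterol and fatty acid genes 6 fell and 3 rose, so 31% were called, against 33.5% of all rows. FASN, fatty acid synthase, fell from 786, 875 and 868 to 489, 529 and 509 CPM and ELOVL6 by 0.74, while SCD and ACLY rose by 0.38 ± 0.13 and 0.37 ± 0.08 (SE), the call of SCD being lost without PBS replicate 1 or TGFB replicates 2 or 3 or without the filter on low counts. Of 30 lysosome and autophagy genes 9 rose and 3 fell, ULK1, a kinase that starts autophagy, going from 107, 114 and 113 to 189.6, 182 and 170.5 CPM.

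The largest changes held genes of no list. By the naming rule, the 12 largest rises were TGM2, SPOCD1, ZFP57, PDGFB, P4HA3, SCG5, ITGB3, MYOZ1, SPRR2G, LBH, MMP13 and AMIGO2. LBH (ENSG00000213626, chromosome 2, 30231534 to 30323730, plus strand), a transcriptional regulator, was at 4.27, 4.71 and 4.45 CPM in PBS and 97.4, 92.3 and 77.2 CPM in TGFB, a log2 fold change of 4.31 ± 0.18 (SE; edgeR adjusted p 6.46e-14). AMIGO2, an adhesion protein, went from 1.55, 1.36 and 1.71 to 27.4, 26.2 and 29.3 CPM, and SPOCD1 from 0.0999, 0.0861 and 0.122 to 3.34, 3.43 and 3.88 CPM. SCG5, ZFP57, SPRR2G and MYOZ1 were near 0 in PBS, at 0.269 CPM or less in every library, and SCG5 has a second row in the table. The row of SCG5 used here had no match in GENCODE v44 and may share reads with the other row. The 12 largest falls were KRT1, UGT1A7, PLA2G2A, PLA2G4F, INSYN1, GPLD1, CAPN14, KRT13, MAOB, FGFBP1, KRT4 and BEST2. UGT1A7 shares exons with other UGT1A genes, so its reads are uncertain. PLA2G2A, a secreted phospholipase, had been at 0.251 ± 0.0517 CPM at T0 (SD, n = 3), was at 2.7, 2.33 and 2.18 CPM in PBS and at 0.391, 0.264 and 0.273 CPM in TGFB. MAOB, a monoamine oxidase, stood at 1.82, 2.0 and 3.38 CPM in PBS and 0.365, 0.408 and 0.765 CPM in TGFB. BEST2, a channel of the bestrophin family, went from 14, 21.9 and 30.8 to 2.82, 4.32 and 7.41 CPM. In terms of CPM, which is not corrected for gene length, the 8 largest gains among called genes included TGFBI, KRT17, ACTB, KRT6A, ACTG1 and FN1, and the 8 largest losses included KRT10, EEF1A1, GLUL, KRT15, FTH1, EEF2 and KRT16. GLUL, glutamine synthetase, was at 3330.1, 3749 and 3138 CPM in PBS and 1859, 2059 and 1916 CPM in TGFB, with T0 at 1888 ± 265 CPM (SD, n = 3). FTH1, ferritin heavy chain, fell by 0.29, a call lost without PBS replicates 2 or 3 or TGFB replicates 1 or 2.

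**Figure D5:**
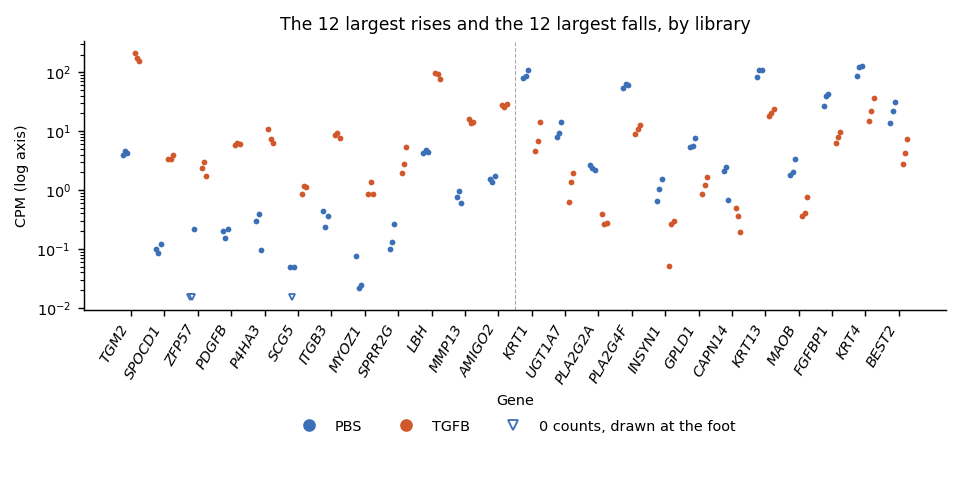
Level in each library (points, CPM on a log axis) of the 12 genes with the largest rises (left of the dashed line) and the 12 with the largest falls (right) in PBS (blue) and TGFB (orange), 3 libraries a group, with 0 counts drawn as open triangles at the foot. In each gene the groups do not overlap, as the naming rule required, and most of the rising genes are under 1 CPM in PBS.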

How the data were processed

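RNA of MCF10A cells was sequenced as polyA-selected, stranded libraries, per the labels' protocols. The deposited table gives whole-number estimated counts per gene in 27 libraries. Per the submitters' processing notes, Trim Galore 0.4.3, cutadapt 1.10, FastQC 0.11.5, kallisto 0.46.2 and R 3.5.0 were used with GRCh38. How the authors summed transcripts to genes and rounded the expected counts is not given in the sources used here. The deposited counts were analysed as they stood, 7165 rows without a symbol (0.324% of counts) included.

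Fits used edgeR 4.0.16 in R 4.3.3: TMM scaling, filterByExpr by group, a robust quasi-likelihood fit over all 27 libraries (18 residual degrees of freedom), and Benjamini-Hochberg adjustment over 16611 rows, with a call at an adjusted p under 0.05. Methods were tested on simulated data. SE is the log2 fold change divided by the root of F. CPM values are TMM-scaled, not per length, so levels are not compared between genes. A floor is 3 counts. Limits from counts cover counting error only, since there are no molecular identifiers. A symbol with several rows was read on the row with the highest mean count.

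The members and the gene lists were chosen with earlier results of these data known. Lists share members, such as TGM2 in the SMAD target and crosslinking lists and KRT1 in the keratin and squamous lists. Their counts are therefore not separate. Genes were named by rule: the 12 largest changes in each direction among called rows with a mean of at least 1 CPM in the higher group and groups that do not overlap, key members of the lists, the called members with the largest changes or a defining role, and the 8 largest gains and losses in CPM among called rows. Some genes that meet this rule are not reported here. Coordinates are GENCODE v44 (GRCh38), matched for 271 of 276 named genes. Promoter windows are RefSeq's, on GRCh38.p14. The motifs shown were chosen, with the data in view, from a wider set that was searched. Alternatives were other scalings, no filter on low counts, the replicate number as a block, 1 row per symbol, only the 6 libraries, DESeq2 1.42.0, an added 2-fold limit and leaving out each library. Figures were drawn with matplotlib 3.10.9.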

Additional observations from a re-analysis of the deposited data

How the results depend on the processing

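The count of 5569 called rows in TGFB against PBS lay between 4642 and 5089 when 1 of the 6 libraries was left out, and between 4973 and 5773 under the other scalings, without the filter on low counts, with only the 6 libraries, with 1 row per symbol and with DESeq2. An added limit of 2-fold left 919 of 5569 rows in TGFB against PBS, 1472 of 7907 in TGFB against T0, 866 of 5464 in PBS against T0, 4066 of 11330 in TGFB against EGF and 2962 of 9924 in TGFB against OSM, by construction. The share of called rows that were higher with TGFB than with PBS was 56.3%, and 49.6% under upper-quartile scaling. Over the 276 named genes and the 12 alternatives, 3140 values kept their direction and side of the threshold, 157 fell short of the threshold, 8 passed it anew and 0 changed direction. Leaving out 1 library ended the calls of 14 (PBS replicate 1) to 29 (PBS replicate 3) of the named genes. Each of these fits also held fewer samples, and the part of this in the losses was not tested. In list counts, the fit with the replicate block called 13 G1 regulators in place of 8 and 14 cholesterol and fatty acid genes in place of 9. MMP1, CDH11 and TEK, genes of few counts at this depth, each lost their call when at least 1 of the libraries was left out, and the part of depth in this was not tested.

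Libraries of PBS and TGFB carry the same replicate numbers. Their deviations from the group means correlated at r = 0.0878, 0.0769 and 0.0866 across genes for equal numbers and at -0.0832 to -0.0027 for the other pairings. Every library correlated best with its own number, a hint from the data and not from the design, though the values were under 0.1. The principal component after the leading one held 10.1% of the variance and fell from replicate 1 to 3 in both groups. A low correlation across all genes does not show that equal numbers share nothing, and whether they mark a shared batch was not tested. The reported fit had no replicate block. With the replicate block 6228 rows were called, 3419 higher and 2809 lower.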
